A study of Arabidopsis thaliana with 4 samples.

Results

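The genes described here are 41 genes of Arabidopsis thaliana that run the cell cycle and DNA replication. They were taken by locus identifier from the 31319 loci of the deposited tables, by known function, and all 41 were found in every table. Earlier results of these data were known when the genes were chosen. By role, 23 act in mitosis and cytokinesis, 8 in DNA replication and 7 at the passage out of G1, and 3 are inhibitors of cyclin-dependent kinases. The mitotic genes are 8 B-type and 4 A-type cyclins, 4 B-type kinases (CDKB), KNOLLE, HINKEL, 2 CDC20 genes, the Aurora kinases AUR1 and AUR2, and the transcription factor MYB3R4. The replication genes are MCM2 to MCM7, PCNA1 and PCNA2. The G1 genes are 6 D-type cyclins and CDKA;1, and the inhibitors are KRP2, SMR5 and SIM.

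Leaf RNA was sequenced in 4 libraries, 1 per group, from plants of the Col-0 background that were 4 weeks old. WT air is wild type before submergence and WT R3 is wild type sampled, per the sample labels, 3 h after submergence. The groups myc2 air and myc2 R3 are the same for myc2-2, a mutant of MYC2, a transcription factor of the jasmonate hormone pathway, and leaves of 6 plants went into each sample. The labels' protocol instead describes 24 h under water in the dark and a harvest of rosettes after 0 and 24 h back in air, and the labels do not settle which of these times R3 has. No library comes from plants kept in the dark in air, so darkness, submergence and reoxygenation cannot be told apart. With 1 library per group there is no replicate check, and no test was run on any difference below.

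A cell divides by passing through G1, S phase (DNA replication), G2 and mitosis, and each passage is driven by kinases that need a cyclin partner. D-type cyclins with CDKA;1 inactivate the retinoblastoma protein RBR, which frees E2F factors to switch on replication genes. Genes of mitosis are switched on later by MYB factors of the R1R2R3 class that bind a promoter element called MSA, and proteins of the KRP and SIAMESE (SIM, SMR) families hold the kinases back. In a rosette, dividing cells are found in young leaves, at the shoot apex and in the stomatal lineage, while most cells of a grown leaf no longer divide and many copy their DNA without mitosis.

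The levels are RPKM, fragments scaled to gene length and library size, so levels of different genes are comparable per length. Where a gene has 4 levels in a row, the first pair is WT in air and at R3 and the second pair is the mutant in air and at R3. Sequencing depth, estimated from the step that 1 fragment makes in low values, was between 22300000 and 30500000 fragments per library, and between 8418 and 9209 loci were listed at 0. MYC2 had 45.9 RPKM in air and 91.7 at R3 in WT, and 14.2 and 34.9 RPKM in myc2, lower in the mutant in both conditions, although a locus on the other strand covers most of its exons. The leaf genes RBCS1A, LHCB1.3 and CA1, of photosynthesis, summed to 49548.8 and 39889.5 RPKM in WT air and myc2 air and to 5743.2 and 5663.8 RPKM in WT R3 and myc2 R3. The deposited scaling leaves the median gene above 0 in the responses: over all genes that pass the filter, the log2 ratio had a median of 0.57 for WT R3 against WT air, 0.30 for myc2 R3 against myc2 air, 0.22 in myc2 air against WT air and 0.04 in myc2 R3 against WT R3. Rescaling by the median of ratios brought these 4 medians to between -0.03 and 0.04, and it is named below where it changes a direction or moves a count by over 1.5 times.

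Promoter sequences of 7 members are shown because genes of the different roles are known to be controlled through different promoter elements. The 250 bases before the annotated start were read from the RefSeq annotation of TAIR10.1, 5′ to 3′ on the strand of the gene, and the mitotic and replication genes shown are the 3 of each role with an element and the largest log2 ratio between WT R3 and WT air. In the mitotic genes below, capitals mark the MSA core AACGG or its reverse complement. KNOLLE has 1 core 8 bases before its start, CYCB1;2 has 4, of which 1 lies in a full MSA element, and AUR1 has 1.
KNOLLE, chr1:2711001-2711250, minus strand: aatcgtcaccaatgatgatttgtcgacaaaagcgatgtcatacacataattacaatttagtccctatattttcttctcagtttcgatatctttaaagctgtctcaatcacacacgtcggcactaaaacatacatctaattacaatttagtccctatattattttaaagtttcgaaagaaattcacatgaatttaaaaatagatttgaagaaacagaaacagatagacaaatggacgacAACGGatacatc
CYCB1;2, chr5:1861704-1861953, minus strand: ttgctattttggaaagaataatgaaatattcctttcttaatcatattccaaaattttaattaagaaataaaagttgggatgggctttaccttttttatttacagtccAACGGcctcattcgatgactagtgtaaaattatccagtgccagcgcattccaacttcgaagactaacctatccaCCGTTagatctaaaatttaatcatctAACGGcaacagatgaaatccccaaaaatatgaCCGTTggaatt
AUR1, chr4:15842193-15842442, plus strand: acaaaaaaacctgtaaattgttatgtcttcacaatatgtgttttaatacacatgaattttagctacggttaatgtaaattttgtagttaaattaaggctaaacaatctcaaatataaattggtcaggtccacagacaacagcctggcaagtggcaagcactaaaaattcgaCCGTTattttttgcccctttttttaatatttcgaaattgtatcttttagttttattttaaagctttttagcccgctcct

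In the replication genes, capitals mark an E2F site (TTT, then CC, CG, GC or GG, then CGC, on either strand) in MCM3 and MCM6, and an MSA core in MCM7, in which no E2F site was matched.
MCM3, chr5:18773707-18773956, minus strand: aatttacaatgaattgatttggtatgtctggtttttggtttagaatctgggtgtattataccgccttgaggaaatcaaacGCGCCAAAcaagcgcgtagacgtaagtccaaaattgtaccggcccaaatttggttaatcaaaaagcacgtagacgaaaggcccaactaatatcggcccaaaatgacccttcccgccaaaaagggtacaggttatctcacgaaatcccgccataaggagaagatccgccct
MCM7, chr4:900386-900635, plus strand: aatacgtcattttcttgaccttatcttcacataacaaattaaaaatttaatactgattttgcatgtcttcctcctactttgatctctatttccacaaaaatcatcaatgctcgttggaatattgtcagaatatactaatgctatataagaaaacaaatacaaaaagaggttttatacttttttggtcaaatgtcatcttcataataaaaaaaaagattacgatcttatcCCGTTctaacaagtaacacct
MCM6, chr5:18010668-18010917, minus strand: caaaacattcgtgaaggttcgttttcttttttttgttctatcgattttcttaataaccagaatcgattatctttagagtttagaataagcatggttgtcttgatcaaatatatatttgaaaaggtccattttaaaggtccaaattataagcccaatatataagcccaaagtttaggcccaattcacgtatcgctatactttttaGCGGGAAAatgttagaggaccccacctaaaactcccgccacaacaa

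In SMR5, capitals mark a motif bound by SOG1, the main transcription factor of the plant DNA damage response (CTT, any 7 bases, AAG). It is matched 84 and 20 bases before the start, and the same window holds 2 G-boxes (cacgtg, the site class bound by MYC2), left in lower case.
SMR5, chr1:2305032-2305281, minus strand: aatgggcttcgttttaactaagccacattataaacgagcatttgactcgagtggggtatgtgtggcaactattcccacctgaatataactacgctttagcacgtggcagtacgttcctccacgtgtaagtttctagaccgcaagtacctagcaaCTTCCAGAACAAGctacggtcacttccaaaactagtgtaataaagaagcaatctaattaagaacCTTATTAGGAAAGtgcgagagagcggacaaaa

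The MSA core was present in 14 of the 23 mitotic promoters (60.9%), against 20.6% of all 27437 promoters of protein-coding genes of the same length. It was present in 6 of the 8 promoters of B-type cyclins, in 1 of the 8 of replication genes, in 1 of the 7 of G1 genes and in 1 of the 3 of inhibitors. The full MSA element, which contains the core, was present in CYCB1;2, CYCB1;3, CYCB2;1, CYCB2;2 and HINKEL, 21.7% of mitotic promoters against 0.408% of all. The E2F site was present in MCM2, MCM3, MCM4, MCM5 and MCM6 and thus in 62.5% of the replication promoters, in none of the 23 mitotic promoters, and in 1.41% of all promoters. The TCP site TGGGCC, bound by a family of growth regulators, was present in 6 of the 8 replication promoters (75%), in 1 mitotic promoter, and in 13.7% of all. The SOG1 motif was present in 9.71% of all promoters and in 4 mitotic ones, and was not matched in CYCB1;1. A G-box was present in 6.49% of all promoters and, among members, in SMR5, CYCB2;3 and MYB3R4. Both strands were searched for every motif, and a match describes letters, not a bound site.

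The first comparison, within the wild type, asks how leaves differ once submergence has ended. In WT R3 the mitotic genes were lower without exception, by 9.05-fold in their summed level (40.8 RPKM in WT air, 4.51 in WT R3). The replication genes were all lower by a smaller factor, 1.82-fold in their sum (24.5 and 13.5 RPKM), the G1 genes were divided, and the 3 inhibitors were higher, where 69.8% of all loci were higher. Of all 41 members, 35 were lower in WT R3, against 30.2% of loci, and 28 were at least 2-fold lower in plain RPKM, against 13% of loci. At least 2-fold higher in plain RPKM were 3, against 37.3% of loci. Only 23 members passed the filter of a mean of 1 RPKM. Of these, 7 were at least 2-fold lower on the log2(RPKM + 1) scale (background 10.1%) and 3 were at least 2-fold higher (background 31.3%), which became 15 lower and 1 higher after rescaling by the median of ratios. All 6 mitotic genes past the filter were among the 7 lower. No mitotic gene reached 1 RPKM in WT R3, so these passed through their air level and a lower call was close to fixed. In leaf RNA of this kind, fewer dividing cells and less RNA per dividing cell cannot be told apart.

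The same comparison in the mutant had the same order of roles. From myc2 air to myc2 R3 the summed level of the mitotic genes differed 15.9-fold (102 and 6.46 RPKM) and that of the replication genes 3.27-fold (49.4 and 15.1 RPKM). Of the 41 members, 37 were lower in myc2 R3, against 39.5% of loci. Of the 40 above 0 in both libraries, 32 were at least 2-fold lower in plain RPKM, against 16.1% of loci. Past the filter were 36 members, of which 28 were at least 2-fold lower on the log2(RPKM + 1) scale (background 11.5%) and 1, SMR5, was at least 2-fold higher (background 23.5%). All 19 mitotic genes past the filter were among the 28. Only 1 mitotic gene reached 1 RPKM in myc2 R3. The others passed through their air level, so a lower call was close to fixed. The 28 here and the 7 in WT are not like counts, since 36 and 23 members passed. Higher in myc2 R3 were 4 members, against 60.5% of loci, 1 of them at least 2-fold in plain RPKM, against 27.9% of loci. Across both genotypes, 35 of 41 members were lower at R3, against 24.7% of loci.

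**Figure D1:**
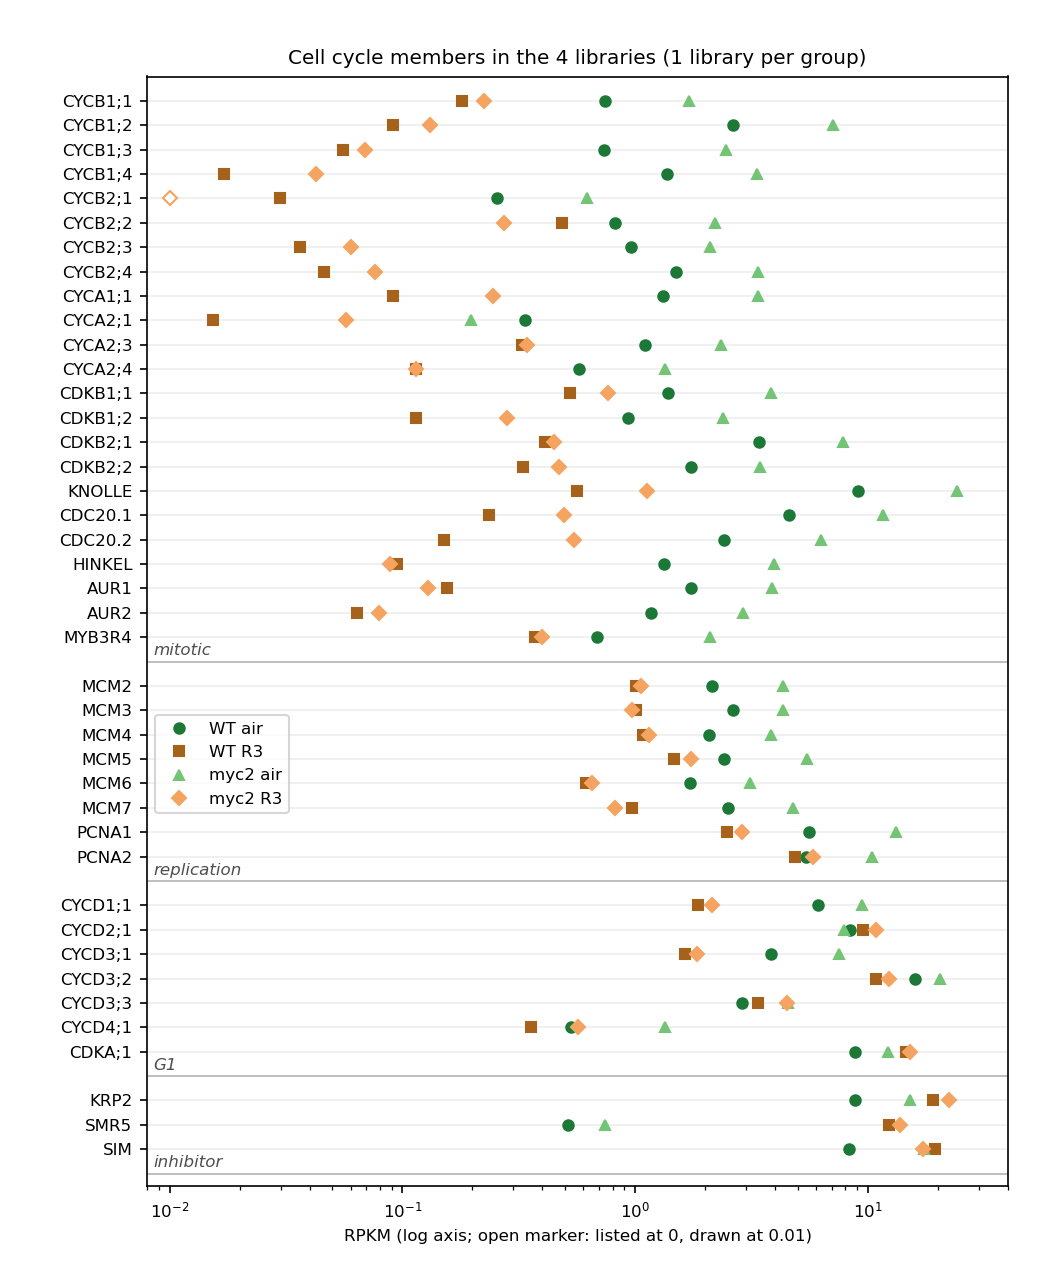
RPKM of each of the 41 members on a log axis, with 1 marker per library and members grouped by role. Mitotic genes have both R3 libraries to the left of both air libraries, as for KNOLLE (9.03 and 24.1 RPKM in air, 0.563 and 1.12 at R3), while SMR5 has the opposite arrangement.

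**Figure D2:**
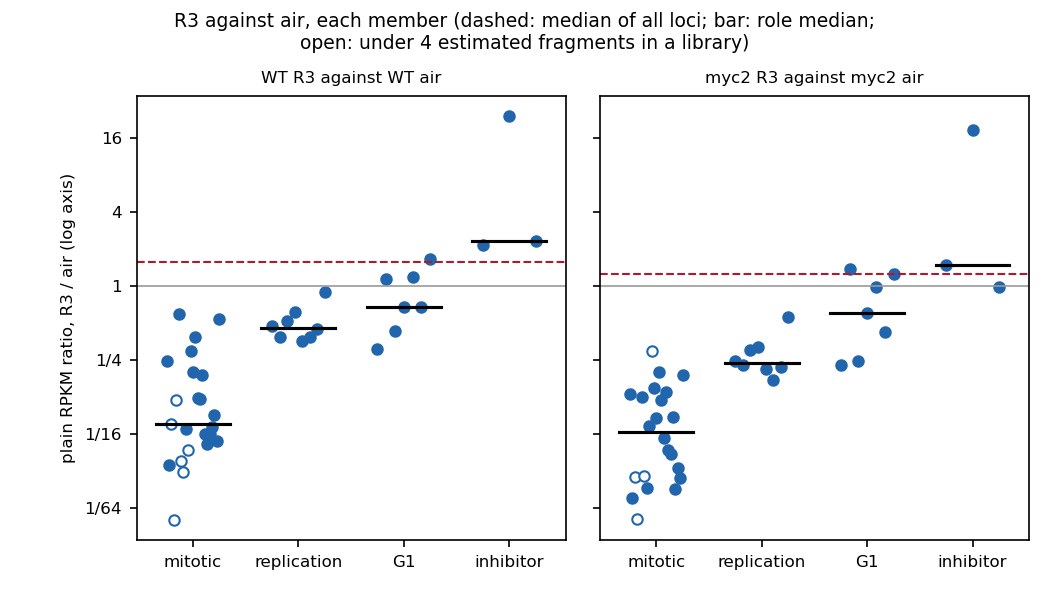
Plain RPKM ratio of R3 to air for each member on a log axis, WT on the left and myc2 on the right, with a bar at the median of each role and a dashed line at the median of all loci (1.57 in WT, 1.26 in myc2). All mitotic and replication genes lie under 1 in both panels, and open markers have fewer than 4 estimated fragments, rounded to whole fragments, in a library.

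KNOLLE (AT1G08560), the syntaxin of the membrane that divides daughter cells, was the most abundant mitotic gene. It had 9.03 RPKM in air and 0.563 at R3 in WT, and 24.1 and 1.12 RPKM in myc2, or about 366, 21.6, 1018.1 and 34.6 fragments. Its level at R3 was 16-fold lower than in air in WT and 21.5-fold lower in myc2. Part of KNOLLE, 464 exon bases, overlaps AT1G08550 on the other strand, which was also lower at R3 (69.2 and 14.7 RPKM in WT), and the part of this overlap in the KNOLLE values was not tested. CDC20.1 (AT4G33270) and CDC20.2 (AT4G33260) activate the complex that degrades mitotic cyclins. CDC20.1 had 4.6, 0.236, 11.6 and 0.496 RPKM and CDC20.2 had 2.42, 0.151, 6.32 and 0.544. These 2 neighbouring genes share 31.4% and 33.2% of their 50-base words with each other, so the division of reads between them is uncertain. HINKEL (AT1G18370), a kinesin of the cell plate, had 1.33, 0.0947, 3.97 and 0.0882 RPKM and was 14-fold lower at R3 in WT and 45-fold lower in myc2.

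The Aurora kinases orient and separate chromosomes. AUR1 (AT4G32830) had 1.74, 0.156, 3.88 and 0.129 RPKM, and AUR2 (AT2G25880) had 1.17, 0.0639, 2.91 and 0.0794. Both were lower at R3 than in air in both genotypes, at levels that correspond to between 4.21 and 6.52 fragments at R3. MYB3R4 (AT5G11510), an activator of MSA-containing genes, differed least among the mitotic genes other than CYCB2;2 (AT4G35620) in WT: it had 0.689, 0.37, 2.1 and 0.398 RPKM, 1.86-fold lower at R3 in WT and 5.27-fold lower in myc2.

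The 8 B-type cyclins, partners of the kinases at entry into mitosis, were all lower at R3 in both genotypes. Their summed level was 9.03 RPKM in air and 0.943 at R3 in WT, and 22.9 and 0.877 RPKM in myc2. CYCB1;2 (AT5G06150) was the highest of them in air, with 2.64, 0.0913, 7.07 and 0.132 RPKM, 28.9-fold lower at R3 in WT and 53.5-fold lower in myc2, although 11.2% of its 50-base words also occur in AT1G34460, another B-type cyclin. CYCB1;1 (AT4G37490), widely used as a reporter of G2 and mitosis, had 0.742, 0.18, 1.71 and 0.224 RPKM, 4.11-fold lower in WT and 7.63-fold lower in myc2. CYCB2;2 had 0.819, 0.486, 2.2 and 0.273 RPKM, and the 1.68-fold difference in WT was the smallest of the mitotic group.

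The other 5 B-type cyclins were near the limit of detection at R3, with fewer than 4 estimated fragments, rounded to whole numbers, in WT R3, so no ratio is given for them. CYCB1;3 (AT3G11520) had 0.737 RPKM in air and 0.0555 at R3 in WT, and 2.46 and 0.069 RPKM in myc2. CYCB1;4 (AT2G26760) had 1.37, 0.0172, 3.35 and 0.0427 RPKM, where the value in WT R3 corresponds to about 1 fragment. CYCB2;1 (AT2G17620) had 0.255, 0.0298 and 0.624 RPKM and was listed at 0 in myc2 R3. All of these stood lower at R3 than in air in the same genotype. CYCB2;3 (AT1G20610) had 0.961, 0.0362, 2.1 and 0.0599 RPKM, and 17.3% of its 50-base words are shared with AT1G20590, another cyclin locus. CYCB2;4 (AT1G76310) had 1.5, 0.0461, 3.38 and 0.0763 RPKM.

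The A-type cyclins act from S phase to mitosis, and these 4 had lower levels at R3 than in air in both genotypes. CYCA1;1 (AT1G44110) had 1.32 RPKM in air and 0.0908 at R3 in WT, and 3.36 and 0.245 RPKM in myc2, 14.5-fold and 13.7-fold lower at R3. CYCA2;3 (AT1G15570), which restrains the endocycle, had 1.1, 0.326, 2.33 and 0.342 RPKM, a smaller difference of 3.38-fold in WT and 6.81-fold in myc2. CYCA2;4 (AT1G80370) had 0.575, 0.114, 1.35 and 0.114 RPKM. CYCA2;1 (AT5G25380) had 0.337, 0.0154, 0.197 and 0.0575 RPKM and was the only mitotic member with a lower level in myc2 air than in WT air, in each case on fewer than 20 estimated fragments.

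B-type kinases are found only in plants and algae and are made from S phase to mitosis. CDKB2;1 (AT1G76540) had 3.39, 0.411, 7.83 and 0.449 RPKM, 8.24-fold lower at R3 in WT and 17.4-fold lower in myc2. CDKB2;2 (AT1G20930) had 1.74, 0.331, 3.43 and 0.473 RPKM, CDKB1;1 (AT3G54180) had 1.38, 0.527, 3.82 and 0.764, and CDKB1;2 (AT2G38620) had 0.931, 0.114, 2.39 and 0.283. The smallest difference among the 4 kinases was 2.61-fold in WT and 5-fold in myc2, both in CDKB1;1.

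Over all 23 mitotic genes, the median plain ratio was 13.3-fold lower at R3 in WT, and 6 of the genes had fewer than 4 estimated fragments in WT R3. Among the other 17, all with at least 4 fragments in both libraries, the ratios ran from 1.68-fold to 28.9-fold lower with a median of 8.24-fold. In myc2 the 18 genes with at least 4 rounded fragments in both libraries were from 5-fold to 53.5-fold lower, with a median of 12.8-fold. CYCB2;4, at 3.96 estimated fragments in myc2 R3, is 1 of these 18, and the median without it was 11.9-fold. Genes whose R3 level was lowest are those left out, so these medians are the smaller ones. After rescaling by the median of ratios all 23 remained lower at R3 in both genotypes.

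MCM2 to MCM7 form the ring-shaped helicase that opens DNA at replication origins, and the 6 genes had similar levels. In WT air they ran from 1.72 to 2.63 RPKM, in WT R3 from 0.614 to 1.47, in myc2 air from 3.11 to 5.46 and in myc2 R3 from 0.654 to 1.74. All 6 were lower at R3 than in air in both genotypes. The highest value at R3 stayed under the lowest value in air within WT and within myc2. MCM6 (AT5G44635) had 1.72, 0.614, 3.11 and 0.654 RPKM, 2.81-fold lower at R3 in WT and 4.75-fold lower in myc2. MCM7 (AT4G02060), in whose promoter no E2F site was matched, had 2.51, 0.968, 4.78 and 0.823 RPKM, 2.6-fold and 5.8-fold lower. MCM3 (AT5G46280) had 2.63, 1.01, 4.33 and 0.973 RPKM, also 2.6-fold lower in WT and 4.45-fold lower in myc2. In these 3 genes, as in the other helicase genes, the R3 levels of the genotypes lie closer together than their air levels. MCM2 (AT1G44900) had 2.15, 1.01, 4.31 and 1.06 RPKM. MCM4 (AT2G16440) had 2.08, 1.08, 3.82 and 1.15 RPKM. MCM5 (AT2G07690) had 2.4, 1.47, 5.46 and 1.74 RPKM, and its differences of 1.63-fold and 3.14-fold were the smallest of the helicase. Each of these values rests on at least 42.6 estimated fragments.

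PCNA is the sliding clamp that holds DNA polymerase on its template. PCNA1 (AT1G07370) had 5.6 RPKM in air and 2.48 at R3 in WT, and 13.2 and 2.89 RPKM in myc2, 2.26-fold lower at R3 in WT and 4.58-fold lower in myc2. PCNA2 (AT2G29570) had 5.41, 4.84, 10.4 and 5.81 RPKM and was 1.79-fold lower at R3 in myc2. Its 1.12-fold difference in WT turned to higher at R3 when the libraries were scaled to an equal sum. A locus on the other strand, AT2G29560, overlaps 279 exon bases of PCNA2 and was itself higher in WT R3 (5.02 and 9.25 RPKM), and its part was not tested. All 8 replication genes passed the filter, and on the log2(RPKM + 1) scale a difference of at least 2-fold was found for 7 in myc2. As deposited it was found for none in WT. After rescaling by the median of ratios, MCM2, MCM3, MCM6, MCM7 and PCNA1 were at least 2-fold lower in WT R3 on that scale. Rescaled levels in WT air and WT R3 were 3.43 and 0.865 RPKM for MCM3, and 7.31 and 2.12 RPKM for PCNA1. In plain RPKM as deposited, a difference of at least 2-fold was found for 5 in WT and 7 in myc2.

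The D-type cyclins, which respond to hormones and sugar at the exit from G1, did not share 1 direction. CYCD1;1 (AT1G70210) had 6.08, 1.87, 9.44 and 2.15 RPKM, 3.25-fold lower at R3 in WT and 4.4-fold lower in myc2. CYCD3;1 (AT4G34160), which links cytokinin to division, had 3.82, 1.64, 7.48 and 1.85 RPKM, 2.33-fold and 4.05-fold lower. CYCD3;2 (AT5G67260), the most abundant D-type cyclin, had 16, 10.8, 20.4 and 12.3 RPKM, 1.49-fold and 1.66-fold lower. CYCD1;1 and CYCD3;1 were the G1 genes with a difference of 2-fold or more in WT as deposited. CYCD4;1 (AT5G65420) had 0.529, 0.357, 1.35 and 0.568 RPKM. After rescaling by the median of ratios, CYCD3;2 (20.9 and 9.22 RPKM) and CYCD4;1 (0.69 and 0.306 RPKM) were also at least 2-fold lower in WT R3.

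The remaining G1 genes had higher levels at R3 in WT as deposited. CYCD2;1 (AT2G22490) had 8.4, 9.49, 7.86 and 10.8 RPKM, and its higher level in WT R3 turned to lower after rescaling by the median of ratios. CYCD3;3 (AT3G50070) had 2.89, 3.37, 4.56 and 4.49 RPKM, and its direction in WT turned in the same way, while that in myc2 turned with an equal sum. CDKA;1 (AT3G48750), the kinase present throughout the cycle, had 8.83, 14.6, 12.2 and 15.2 RPKM, 1.66-fold higher at R3 in WT and 1.24-fold higher in myc2, where the direction turned after rescaling by the median of ratios. Both WT ratios for CYCD2;1 and CYCD3;3, 1.13 and 1.17, were below the median ratio of all loci, 1.57.

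The inhibitors were the 3 members with at least 2-fold higher levels at R3 in WT. SMR5 (AT1G07500), a SIAMESE-RELATED inhibitor known to respond to reactive oxygen and DNA damage, had 0.515 RPKM in air and 12.3 at R3 in WT, and 0.74 and 13.8 RPKM in myc2, from about 4, 91, 6 and 82 fragments. Its level at R3 was 24-fold higher than in air in WT and 18.7-fold higher in myc2, and the air and R3 libraries were far apart in both genotypes. The annotated SMR5 gene, of 266 bases at chr1:2304766-2305031, lies wholly within exon sequence of AT1G07510 on the other strand, a gene for an FTSH protease. That locus had 6.95, 18.5, 8.01 and 15.5 RPKM, also higher at R3, and its part in the SMR5 values was not tested, since the use of strand in the counting is not given in the sources used here.

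KRP2 (AT3G50630), an inhibitor of CDKA;1 complexes, had 8.84, 19.1, 15.2 and 22.4 RPKM, 2.15-fold higher at R3 in WT and 1.48-fold higher in myc2. SIM (AT5G04470), which promotes endoreduplication in leaf hairs, had 8.3, 19.4, 17.5 and 17.3 RPKM. It was 2.33-fold higher at R3 in WT. In myc2 its ratio of 0.985 turned from lower to higher with an equal sum. In SIM, 249 of 792 exon bases overlap a locus on the other strand. After rescaling by the median of ratios, SMR5 was the only inhibitor at least 2-fold higher at R3 in either genotype.

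The comparison between genotypes in air asks how the mutant differs before submergence. Here 39 of 41 members were higher in myc2 air, against 75.2% of loci, and 26 were at least 2-fold higher in plain RPKM, against 11.2% of loci. The other 2, CYCA2;1 and CYCD2;1, were lower, against 24.8% of loci, and none was at least 2-fold lower in plain RPKM, against 2.29% of loci. After rescaling by the median of ratios, 39 were still higher but 13 were at least 2-fold higher. On the log2(RPKM + 1) scale 8 of the 36 members past the filter were at least 2-fold higher (background 2.47%), which became 1 of 38 after rescaling by the median of ratios, and none was at least 2-fold lower (background 0.343%).

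The difference was graded by role. The mitotic genes summed to 40.8 RPKM in WT air and 102 RPKM in myc2 air, 2.51-fold higher, and 22 of 23 were higher in myc2 air with a median plain ratio of 2.49 (2.03 after rescaling by the median of ratios). Ratios in the mitotic group were narrow in range apart from CYCA2;1 at 0.584, from 1.97 in CDKB2;2 to 3.33 in CYCB1;3. KNOLLE was 2.67-fold higher, CYCB1;2 2.68-fold, CDC20.1 2.52-fold, HINKEL 3-fold and MYB3R4 3.05-fold. The median ratio was 1.91 over the 8 replication genes, with PCNA1 highest at 2.36 and MCM3 lowest at 1.65. It was 1.55 over the 7 G1 genes, where CYCD2;1 stood at 0.935, and 1.72 over the 3 inhibitors, against 1.21 over all loci. Every member had at least 4 rounded fragments in both air libraries. In 35 of the 41 genes myc2 air was the highest of the 4 libraries, against 23.8% of loci.

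At R3 few members differed by 2-fold between the genotypes. Members higher in myc2 R3 than in WT R3 numbered 33 of 41, against 55.8% of loci, and 6 of the 40 above 0 in both libraries were at least 2-fold higher in plain RPKM, against 6.94% of loci. All 6 were mitotic genes, of 22 above 0 in both libraries with a median plain ratio of 1.44. Mitotic genes had a median of 6.52 estimated fragments in WT R3 and 8.15 in myc2 R3. Lower in myc2 R3 were 8 members, against 44.2% of loci, and none of those above 0 by 2-fold or more, against 4.48% of loci. None of the 14 members past the filter reached 2-fold on the log2(RPKM + 1) scale in either direction (backgrounds 1.92% higher and 1.6% lower). The summed level of the replication genes was 13.5 RPKM in WT R3 and 15.1 in myc2 R3, and that of the G1 genes 42.1 and 47.2. The mitotic genes summed to 4.51 and 6.46 RPKM, and no mitotic gene passed the filter. CDC20.2, with 0.151 and 0.544 RPKM from about 8.11 and 23.5 fragments, had the highest plain ratio, 3.6, among mitotic genes with at least 4 fragments in both libraries. CYCB2;2 had the lowest, 0.561. The directions of CYCA2;3, CDKB2;1, MYB3R4, MCM2, MCM4, MCM6 and CDKA;1 between the R3 libraries turned with an equal sum.

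**Figure D3:**
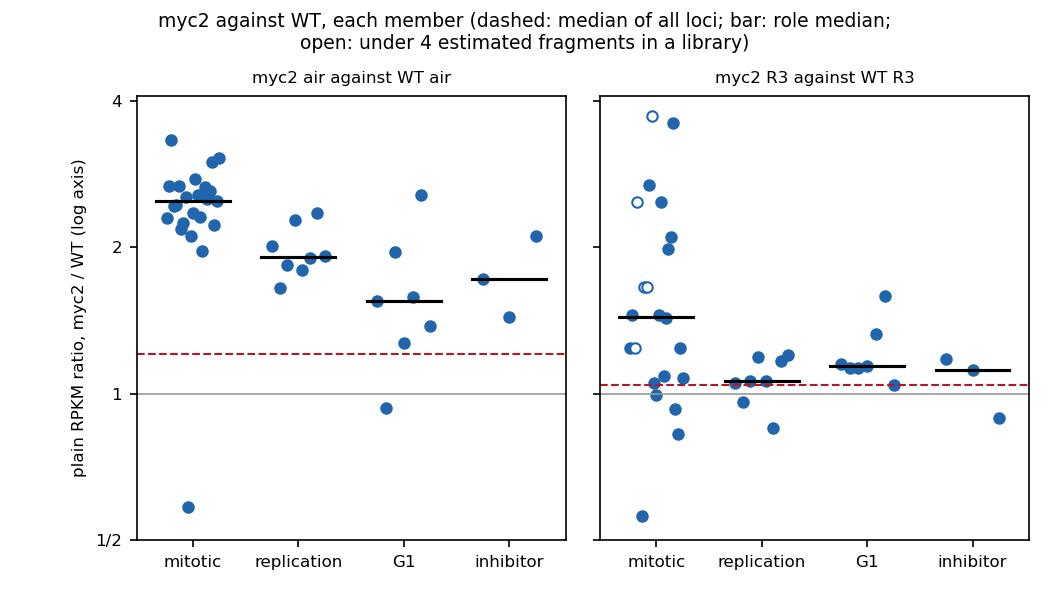
Plain RPKM ratio of myc2 to WT for each member on a log axis, in air on the left and at R3 on the right, with a bar at the median of each role and a dashed line at the median of all loci (1.21 in air, 1.04 at R3). In air 39 of 41 members lie above 1, with role medians of 2.49, 1.91, 1.55 and 1.72 from left to right. At R3 the replication, G1 and inhibitor genes lie near 1, and the mitotic genes have a median of 1.44.

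The log2(RPKM + 1) ratio of R3 to air was lower in the mutant for most members. The difference of responses, which subtracts the WT log2(RPKM + 1) ratio of R3 to air from the mutant one, was negative for 39 of 41 members, against 62.6% of loci. For genes near 0 at R3 this scale mostly follows the difference between the air libraries. CYCA1;1 stood at -0.72, although its plain ratios were 14.5-fold lower in WT and 13.7-fold lower in myc2. For genes higher at R3 in WT, such as KRP2 at -0.49, a negative value instead means a ratio nearer 1 in myc2. Among the 31 past a filter of a mean of 1 RPKM over all 4 libraries, 3 were at or beyond -1 (background 5.2%) and none was at or beyond 1 (background 1.51%). These 3 were CYCB1;2 at -1.10, HINKEL at -1.10 and SIM at -1.15. After rescaling by the median of ratios none of the members reached 2-fold, and the median difference over all genes moved from -0.16 to 0.07. KNOLLE stood at -0.88, MCM7 at -0.83 and SMR5 at -0.05. The negative values of SMR5, CYCD3;2 (-0.16) and CYCD3;3 (-0.19) turned to positive after rescaling by the median of ratios.

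Other genes of the pathway were read by role as well. Of 23 further mitotic and cytokinesis genes, 19 were lower in WT R3 than in WT air, against 30.2% of loci, and 16 of them at least 2-fold in plain RPKM, against 13%. In myc2 21 were lower at R3, against 39.5% of loci. MAD2, of the spindle checkpoint, had 4 RPKM in air and 0.2 at R3 in WT, and 9.07 and 0.386 RPKM in myc2. TES, a kinesin of cytokinesis related to HINKEL, went the other way with 0.863, 2.42, 1.57 and 3.13 RPKM. Of 18 further replication genes, 14 were lower in WT R3, against 30.2% of loci, and 16 in myc2 R3, against 39.5%. In WT 7 were at least 2-fold lower as deposited and 12 after rescaling by the median of ratios. TSO2, a subunit of the enzyme that makes deoxyribonucleotides, had 24.9, 9.06, 39.2 and 16.6 RPKM, and LIG1, the DNA ligase of replication and repair, had 2.4, 4.88, 3.75 and 3.48.

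Histones of nucleosomes laid down in S phase were mostly lower at R3. Of 17 genes for replication-dependent histones, 14 were lower in WT R3, against 30.2% of loci, and 13 of these at least 2-fold in plain RPKM, against 13%. In myc2 R3 15 were lower, against 39.5% of loci. Their summed level was 1064.8 RPKM in air and 475 at R3 in WT, and 1643.2 and 630 RPKM in myc2. The gene AT3G46320, a histone by its annotation, had 46.2, 6.62, 70.3 and 8.57 RPKM, and AT1G07660 had 19.7, 26.4, 25.9 and 32.3. The higher level of AT1G07660 in WT R3 turned to lower after rescaling by the median of ratios. The H3.1 gene AT5G65360 had 97.3, 31.2, 148 and 32.1 RPKM, and HTA13, an H2A gene, had 32.2, 14, 52.4 and 30.8. Copies of these genes are alike in sequence and their division of reads is uncertain.

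Transcriptional regulators of the cycle were mostly higher in WT R3. Of 12 genes of the E2F, RBR and MYB3R group, 10 were higher in WT R3 than in WT air, against 69.8% of loci, and 7 of these at least 2-fold in plain RPKM, against 37.3% of loci. With the median of ratios 8 were higher, none of them at least 2-fold. In myc2 8 were higher at R3, against 60.5% of loci. E2FC, an E2F factor that represses, had 2.27, 6.71, 3.49 and 6.94 RPKM, and the E2F partner DPA had 2.23, 4.92, 2.9 and 4. MYB3R5, a repressor of MSA-containing genes, had 0.476, 1.32, 0.694 and 2.56 RPKM. TSO1, of the same repressor complex, had 5.57, 5.74, 8.39 and 5.17 RPKM. Their levels were higher at R3 for E2FC, DPA and MYB3R5 in both genotypes, while TSO1 was lower at R3 in myc2 and, after rescaling by the median of ratios, in WT as well.

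Of 17 further inhibitors and endocycle genes, 11 were higher in WT R3, against 69.8% of loci, and 8 at least 2-fold, against 37.3%. In myc2 R3 13 were higher, against 60.5%, and 7 at least 2-fold, against 27.9%. SMR7, which like SMR5 is known to respond to reactive oxygen, had 0.565, 3.33, 1.19 and 1.48 RPKM. SMR4 had 0.545, 1.72, 2.39 and 4.79 RPKM. AT5G40460, annotated as an SMR3-like inhibitor, had 1.3, 11, 2.39 and 9.61 RPKM, and LGO (also SMR1) was lower at R3 with 74.3, 37.7, 66 and 46 RPKM. Of 14 further cyclins and their partners, 9 were higher in WT R3, against 69.8% of loci, and 6 in myc2 R3, against 60.5%. With the median of ratios 4 were higher in each genotype. CKS2, a kinase subunit, had 9.24, 2.76, 21.2 and 3.18 RPKM and CYCA3;2, a cyclin of S phase, had 6.77, 2.45, 8.94 and 3.63, both lower at R3, while CYCH;1, of the kinase that activates other kinases, had 1.93, 5.39, 2.5 and 4.63.

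Genes of the DNA damage response did not share 1 direction. Of 11 genes, 8 were higher in WT R3, against 69.8% of loci, and 5 in myc2 R3, against 60.5%. With the median of ratios 4 were higher in each genotype. ANAC044, a target of SOG1, had 0.301, 2.42, 0.238 and 2.66 RPKM. XRI1 had 1.37, 2.08, 2.25 and 2.79 RPKM, and its higher levels at R3 turned to slightly lower after rescaling by the median of ratios. The levels of RAD17 (1.01, 1.2, 1.25 and 1.01 RPKM) and of AT2G31320, a poly(ADP-ribose) polymerase gene (1.07, 1.19, 1.89 and 1.13 RPKM) differed by less than 2-fold between any 2 of the libraries.

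**Figure D4:**
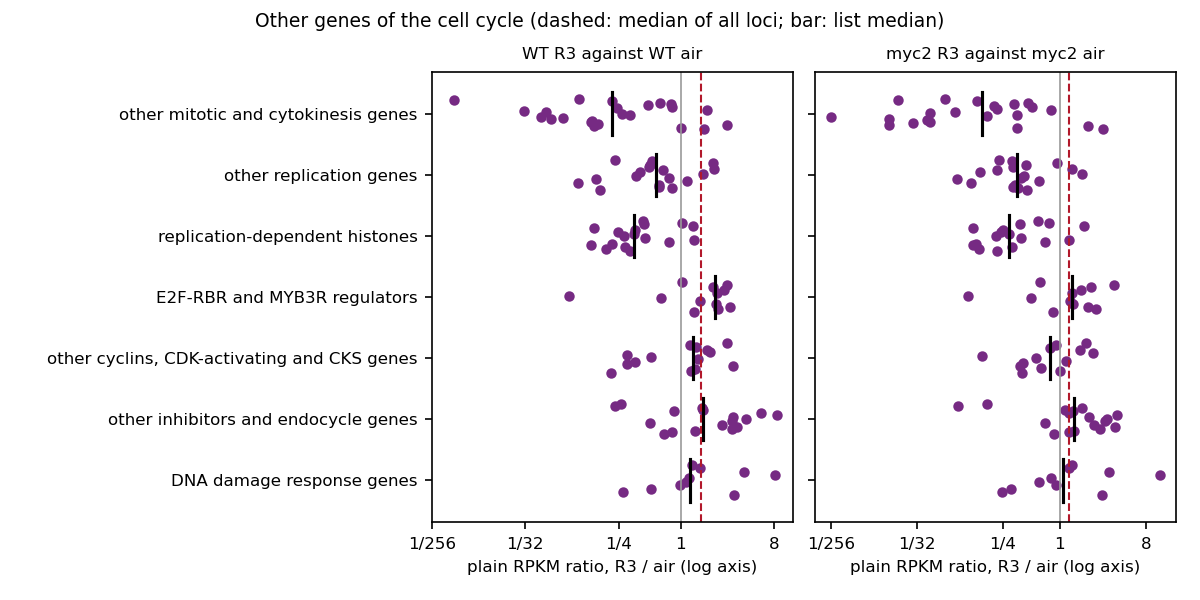
Plain RPKM ratio of R3 to air for genes of 7 further lists on a log axis, WT on the left and myc2 on the right, with a bar at each list's median and a dashed line at the median of all loci (1.57 in WT, 1.26 in myc2). Lists of mitotic, replication and histone genes have medians of 0.215, 0.568 and 0.354 in WT, while the regulators have 2.11 and the further inhibitors 1.64. Genes listed at 0 in a library are not drawn.

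Markers of the tissues that hold dividing cells were read beside these results. In WT the 8 markers of the stomatal lineage summed to 13.2 RPKM in air and 21.9 at R3, and 5 of them were higher at R3, a share below the 69.8% of all loci. FAMA carried this sum, and the other 7 markers summed to 7.75 and 7.62 RPKM. The 7 markers of young leaf growth summed to 44 RPKM in WT air and 16.8 in WT R3, and all 7 were lower at R3, against 30.2% of loci. Most of the difference in this sum was STOMAGEN (25.1 and 4.03 RPKM). As deposited, 2 of the 7 were at least 2-fold lower in plain RPKM, against 13% of loci. ANT (2.75 and 2.69 RPKM) and GRF2 (2.22 and 2.02 RPKM) differed little. After rescaling by the median of ratios, more than these 2 markers were at least 2-fold lower. In myc2 these sums were 23.2 and 20.4 RPKM for the stomatal lineage and 57.1 and 34.9 RPKM for leaf growth. The 8 markers of the shoot meristem summed to 3.53 RPKM in air and 25.9 at R3 in WT, and 14.9 and 24.6 RPKM in myc2. Nearly all of this was KNAT1 (1.14, 17.5, 6.32 and 14.6 RPKM) and STM (1.85, 6.78, 6.68 and 7.98 RPKM), while CLV3 and WUS, which define the stem cell niche, stayed at 0.0534 RPKM or below. The part of tissue makeup in the member values was not tested.

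Between genotypes in air, where 75.2% of loci were higher in myc2 and 11.2% at least 2-fold, the same markers were counted. All 8 stomatal lineage markers were higher in myc2 air than in WT air, 6 of them at least 2-fold in plain RPKM, as were 6 of 7 leaf growth markers, 3 of them at least 2-fold, and 6 of 8 meristem markers, a share at that of all loci. These 6 meristem markers were all at least 2-fold higher in plain RPKM, and 1 other was at least 2-fold lower. Only 2 meristem markers, STM and KNAT1, passed the filter. With the median of ratios 6 of 8 stomatal lineage markers were higher, all 6 at least 2-fold, and 1 leaf growth marker was at least 2-fold higher. Single markers among these were TMM (2.07 and 5.27 RPKM in WT air and myc2 air), AN3 (5.64 and 11.9 RPKM) and ANT (2.75 and 6.49 RPKM). FAMA (5.49 and 5.63 RPKM), EPF1 (2.41 and 2.62), GRF2 (2.22 and 3.36) and STOMAGEN (25.1 and 21.8) differed less. The 6 floral markers summed to 3.4 RPKM in air and 12.1 at R3 in WT, and 9.41 and 20.7 RPKM in myc2, with PI at 0.609, 11.3, 2.08 and 17, AP3 at 0.651, 0.325, 2.27 and 1.62, and SEP3 at 1.36, 0.351, 3.27 and 1.25. PI alone carried the higher sums at R3. The other 5 were lower at R3 in WT and in myc2, against 30.2% and 39.5% of loci. In WT all 5 were at least 2-fold lower, against 13% of loci, but only 1 floral marker reached 1 RPKM in WT air. The 6 root markers summed to 16.4, 83.7, 24.9 and 37.4 RPKM, mostly PYK10 (2.91, 62.8, 6.54 and 11.4) and SCR (8.88, 11.4, 9.9 and 15.6), while the root meristem genes PLT1 and PLT2 were at or near 0. Their part in the difference between genotypes was not tested.

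**Figure D5:**
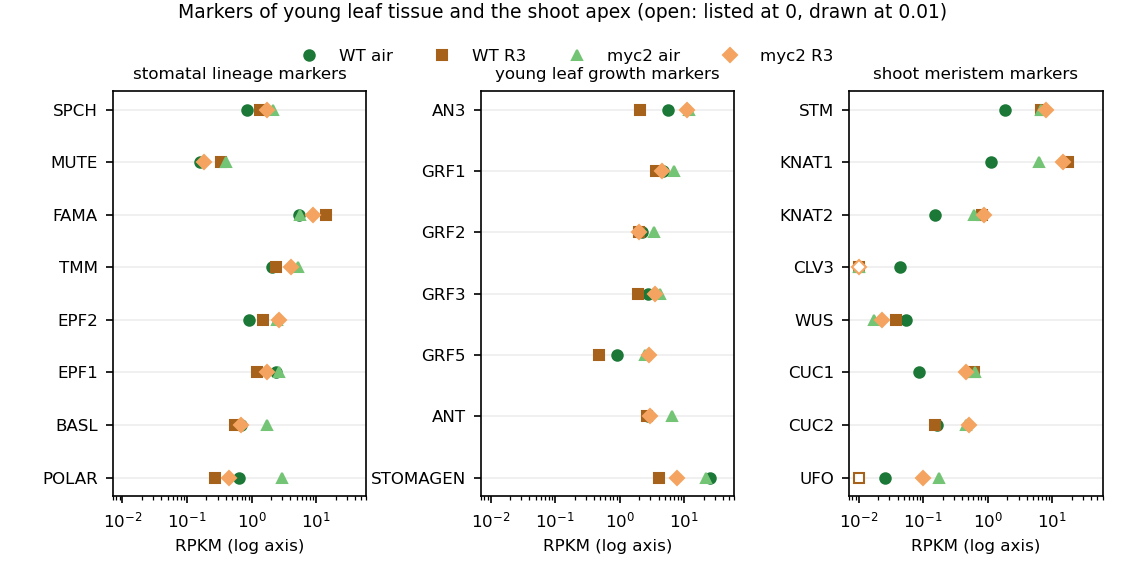
RPKM of markers of the stomatal lineage, of young leaf growth and of the shoot meristem on log axes, with 1 marker symbol per library. KNAT1 and STM lie further right at WT R3 (17.5 and 6.78 RPKM) than in WT air (1.14 and 1.85 RPKM), and STOMAGEN lies further left (4.03 against 25.1 RPKM).

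Loci on the other strand overlap exons of 14 of the 41 members. Besides KNOLLE, SMR5, SIM and PCNA2 these are AUR1, AUR2, CDKB1;1, CDKB1;2, CDKB2;1, CDKB2;2, CYCA2;3, MCM7, CYCD1;1 and CYCD3;2. Such overlap was also found in MAD2, TSO1, LGO, HTA13, MYB3R5, RAD17, PYK10 and LHCB1.3. The values of these genes carry that limit in every comparison above.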

How the data were processed

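Leaf RNA of 4 libraries, 1 per group, was analysed from 1 deposited table per library, each with 31319 loci. Of these deposited tables, 3 hold RPKM by their names. The WT R3 column is headed FPKM, per the file headers, and the authors' tables were treated as 1 unit. The submitters' processing notes name TopHat, Cufflinks and TAIR10, with no versions. How strand and multiply mapped reads were handled is not given in the sources used here.

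Groups came from sample titles. For each pair of libraries, log2((RPKM + 1)/(RPKM + 1)) was computed for genes averaging 1 RPKM or more in the libraries compared, or in all 4 for the difference of responses, and genes at least 2-fold apart were counted. This scale understates ratios of low genes. Since many members are below 1 RPKM, plain RPKM ratios without filter or pseudocount were added after the data were seen. No test was possible with 1 library per group, and none was run.

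Depth was estimated from low values, whose size times exon length steps with single fragments. Between 16.7% and 19.2% of low values came out within 0.02 of a whole fragment, so the fragment numbers in the text are approximate.

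Members, the 13 further lists of 150 genes and the alternatives were chosen with earlier results of these data known. All members are named. From each further list, the highest and lowest log2 ratios in WT R3 against WT air and in myc2 R3 against WT R3 were named, if they averaged 1 RPKM or more. The alternatives were pseudocounts of 0.1 and 5, no filter, a filter at 5 RPKM, and 3 rescalings (for the further lists chosen after the data were seen), by the median of ratios, to an equal sum, and to the sum without the 50 highest genes.

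Promoters, exon lengths, overlaps and 50-base words came from the RefSeq annotation and sequence of TAIR10.1, matched by locus identifier. The calculation was tested on simulated data. Python 3.11.15, pandas 2.3.3, numpy 2.4.6 and matplotlib 3.10.9 were used.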

Additional observations from a re-analysis of the deposited data

Results flagged for a closer look

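Genes with opposite directions in the 2 genotypes are given here with their log2(RPKM + 1) ratios of R3 to air, if they are members or were named from the further lists. Among the 133 members and list genes that averaged 1 RPKM or more, 17 had opposite directions, and 9 of these were not named and are not given. With 1 library per group none of these differences was tested. The cell cycle inhibitor SIM was higher at R3 by 1.13 in WT and stood at -0.02 in myc2, a difference of -1.15. The D-type cyclin CYCD3;3 stood at 0.17 and -0.02, a difference of -0.19. The DNA ligase gene LIG1 stood at 0.79 in WT and -0.08 in myc2, a difference of -0.88. AT1G77720, annotated as a putative protein kinase, stood at 0.46 and -0.18, a difference of -0.64. TSO1 stood at 0.04 and -0.61, a difference of -0.64. The stomatal lineage gene TMM stood at 0.13 and -0.32, a difference of -0.46. The poly(ADP-ribose) polymerase gene AT2G31320 stood at 0.08 and -0.44, a difference of -0.52. The DNA damage checkpoint gene RAD17 stood at 0.13 and -0.16, a difference of -0.29. In myc2 air each of these 8 genes had a higher level than in WT air, against 75.2% of loci. The air levels enter the ratios by which these genes were picked, so this is not a separate result. After rescaling by the median of ratios, CYCD3;3, TMM, AT2G31320, TSO1 and RAD17 were lower at R3 in both genotypes (in WT by -0.30, -0.29, -0.25, -0.49 and -0.19), so their directions were no longer opposite, and the same held with the sum without the 50 highest genes. SIM and CYCD3;3 were higher in both genotypes with an equal sum. LIG1 and AT1G77720 kept opposite directions under all 3 rescalings.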

How the results depend on the processing

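No paired analysis was possible because each group has 1 library, and no replicate could be left out. Of 226 comparisons of a count or role median with its value under an alternative, 191 stayed within the set margin and 35 moved.

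Members at least 2-fold lower in WT R3 numbered 13 with a pseudocount of 0.1, 1 with 5, 13 without a filter, 0 with a filter at 5 RPKM, 15 with the median of ratios, 12 with an equal sum and 12 with the sum without the 50 highest genes, against 7. Those higher numbered 1 with a pseudocount of 5, with the median of ratios and with the sum without the 50 highest genes, against 3, and in plain RPKM also 1 with either of these 2 rescalings. Those lower in myc2 R3 numbered 7 with a pseudocount of 5 and 4 with a filter at 5 RPKM, against 28. Those higher in myc2 air than in WT air numbered 22 with a pseudocount of 0.1, 1 with 5, 4 with a filter at 5 RPKM, 1 with the median of ratios and 15 with an equal sum, against 8. In plain RPKM they numbered 13 with the median of ratios, against 26, where 1 became at least 2-fold lower. Members with a difference of responses at or beyond -1 numbered 8 with a pseudocount of 0.1, 0 with 5, 1 with a filter at 5 RPKM, 0 with the median of ratios and 10 with an equal sum, against 3.

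The mitotic median relative to all genes in WT was -2.25 as reported, -4.22 and -0.95 with pseudocounts of 0.1 and 5, and -1.32 without a filter. In myc2 it was -2.16 as reported, -4.20 and -0.86 with these pseudocounts and -3.74 with a filter at 5 RPKM. The replication median was -0.60 in WT with a pseudocount of 5, and in myc2 -2.34 and -0.81 with pseudocounts of 0.1 and 5. Between the R3 libraries no mitotic gene passed the filter, so that median has no value. There the replication genes had a median plain ratio of myc2 to WT of 1.06 with 6 of 8 higher in myc2 as deposited, and of 0.962 with 3 of 8 higher with an equal sum. The members higher in myc2 R3 numbered 33 as deposited and 26 with an equal sum. The share of higher genes among all those at least 2-fold apart moved with the median of ratios from 75.5% to 50.3% in WT R3 against WT air, from 67.3% to 51.9% in myc2, from 87.8% to 62.9% between the air libraries, and from 22.4% to 48.7% in the difference of responses. Between the R3 libraries it moved from 54.5% to 39.9% with an equal sum. Depth limits the mitotic genes at R3, 6 of which had fewer than 4 estimated fragments, rounded to whole numbers, in WT and 5 in the mutant, where CYCB2;4 at 3.96 counts as 4. The cause of these movements was not tested.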
